A study of Mus musculus with 47 samples.

Results

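The NADPH oxidase of phagocytes and the RAC signalling modules of leukocytes were followed in mouse cerebral cortex through 9 genes, of 53068 genes that both deposited tables hold. The genes were chosen by name. They were oxidase subunits (Cybb, Cyba, Ncf1, Ncf4), a RAC GTPase (Rac2), its activators (Vav1, Dock2), its inhibitor (Arhgdib) and an actin regulator known from leukocytes (Coro1a). Symbols were matched to Ensembl identifiers through the GENCODE M21 annotation. Male C57BL/6J mice of about 3 months were fed for 10 days either control chow or AIN-76A chow with 1200 ppm PLX5622, an inhibitor of the CSF1 receptor on which microglia depend, and one cortex per mouse was sequenced at 6 Zeitgeber times (ZT2, ZT6, ZT10, ZT14, ZT18 and ZT22, with lights on at ZT0 and off at ZT12). Each of the 12 groups held 4 mice, except control ZT14 with 3, giving 23 control and 24 PLX5622 libraries. PLX5622 acts on the whole body and also reaches other CSF1R-dependent macrophages, so the treated mice do not model the loss of microglia alone. Mice were housed 4 to a cage, and the cage of each library was not given. A cage may therefore coincide with a group, and a cage effect could then not be told apart from diet or time. The p-values measure the spread between these mice.

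The phagocyte oxidase moves electrons from NADPH to oxygen and makes superoxide. Its membrane core, NOX2 (the product of Cybb) held by the product of Cyba, is inactive until cytosolic subunits, among them the products of Ncf1 and Ncf4, and a GTP-bound RAC protein join it. In leukocytes RAC2 is loaded with GTP by exchange factors such as VAV1 and DOCK2, is kept in the cytosol by the inhibitor encoded by Arhgdib, and also drives actin remodelling, in which coronin 1A takes part. In the brain this machinery is known best from microglia.

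Library totals ran from 16597987 to 27626161 counts, with medians of 18314954 in control and 21476967.5 in PLX5622 libraries, and mitochondrial genes took 6.46% to 10.0% of counts. All 10 microglial marker genes fell with PLX5622 on counts, and their summed level fell from between 211 and 317 TPM (the level per transcript length used here) in control libraries to between 18.2 and 62.0 TPM. This check of the depletion left 15.2% of the mean control level. The platforms named in the labels, NovaSeq and HiSeq, were not tied to libraries, so no value within a platform could be given.

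The oxidase and RAC genes fell to unequal extents with PLX5622. By counts, 8 of the 9 genes fell (edgeR quasi-likelihood test, Benjamini-Hochberg adjusted p under 0.05), against 4.99% of the 18274 genes tested. The median log2 fold change of the 9 was -2.48 beside 0.013 over all genes. The 9 genes and the lists below were chosen with earlier results of these data known, so such shares are a description only. Ncf1, Vav1 and Dock2 kept 9.38%, 10.4% and 12.7% of their mean control level in CPM (counts scaled to the library total), Ncf4, Rac2 and Cybb kept 16.0%, 17.9% and 20.2%, Cyba kept 48.1% and Arhgdib 61.9%. Coro1a kept 99.7% and did not pass the test. In bulk cortex, fewer cells of a type and less RNA per cell cannot be told apart. On the TPM table (limma on log2(TPM + 1), genes averaging 1 TPM or more) 5 of the 6 genes tested fell, against 2.58% of 14580 genes, and Cybb, Ncf4 and Dock2 were under the filter on low values. Without control ZT2 replicate 2 or control ZT6 replicate 3, Rac2 also dropped under that filter, which left 4 genes lower.

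**Figure D1:**
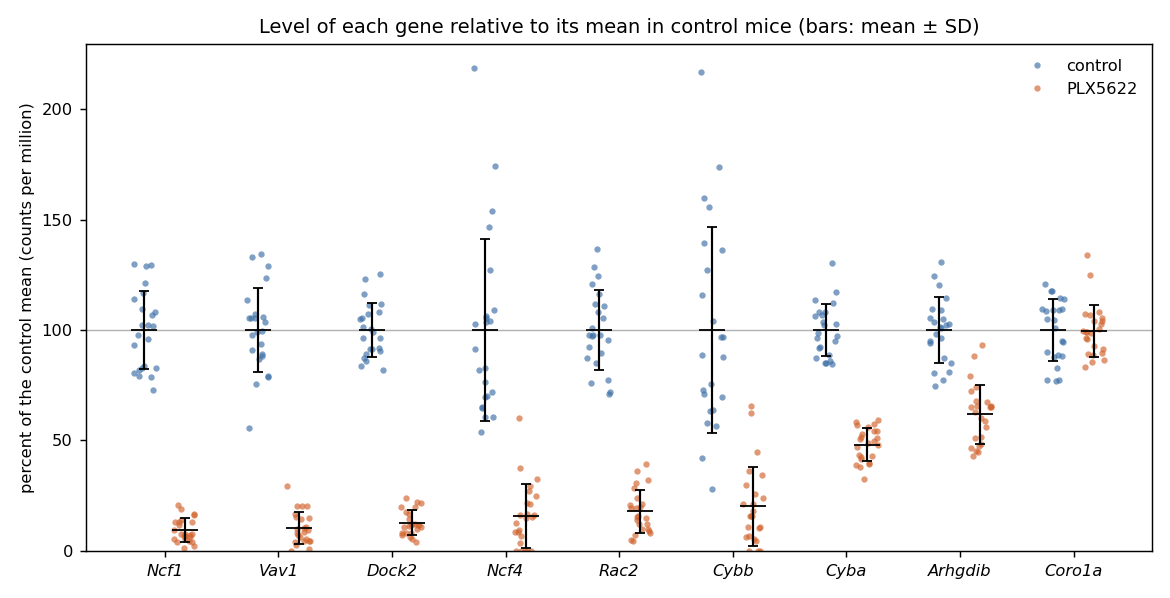
CPM of each gene as a percent of its mean over control mice. Points are mice (23 control, 24 PLX5622), and horizontal bars and whiskers are the mean and SD. Ncf1 sits lowest after PLX5622 at 9.38%, Cyba and Arhgdib lie at 48.1% and 61.9%, and the Coro1a clouds coincide.

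The stretches just upstream of the RefSeq start are shown for Dock2 and Vav1, which lost most of their RNA. They are also shown for Cyba and Coro1a, which kept 48.1% and 99.7%. These genes are examples and not the ends of the range, since Ncf1 kept less than Dock2 and Vav1, and Arhgdib more than Cyba. Of the 9 genes, 7 had a window in the RefSeq table (build GRCm38.p6), and Rac2 and Ncf4 had none. The windows are chr11:34783906-34784155 on the minus strand for Dock2, chr17:57278850-57279099 on the plus strand for Vav1, chr8:122432941-122433190 on the minus strand for Cyba and chr7:126704817-126705066 on the minus strand for Coro1a, the last inside the longer Coro1a gene of M21 but outside its exons. Each is printed 5′ to 3′ along its gene, with matches to the core GAGGAA bound by PU.1, a transcription factor of myeloid cells, and to the GC box GGGCGG in capitals, on either strand (TTCCTC and CCGCCC are the reverse complements).
Dock2: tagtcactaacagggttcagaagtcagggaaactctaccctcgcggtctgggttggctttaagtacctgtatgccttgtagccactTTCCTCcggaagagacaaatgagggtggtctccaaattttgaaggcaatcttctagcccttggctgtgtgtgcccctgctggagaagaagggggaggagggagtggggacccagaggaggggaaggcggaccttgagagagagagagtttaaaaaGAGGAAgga
Vav1: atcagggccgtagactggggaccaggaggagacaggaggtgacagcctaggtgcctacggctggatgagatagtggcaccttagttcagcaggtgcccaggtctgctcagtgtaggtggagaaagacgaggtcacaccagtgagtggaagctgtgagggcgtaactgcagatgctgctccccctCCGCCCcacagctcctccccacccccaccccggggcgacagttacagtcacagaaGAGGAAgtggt
Cyba: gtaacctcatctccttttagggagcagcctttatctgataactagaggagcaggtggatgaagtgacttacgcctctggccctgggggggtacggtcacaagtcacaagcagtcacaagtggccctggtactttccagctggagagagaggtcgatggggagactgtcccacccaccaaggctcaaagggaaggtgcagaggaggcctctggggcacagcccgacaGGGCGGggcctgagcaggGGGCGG
Coro1a: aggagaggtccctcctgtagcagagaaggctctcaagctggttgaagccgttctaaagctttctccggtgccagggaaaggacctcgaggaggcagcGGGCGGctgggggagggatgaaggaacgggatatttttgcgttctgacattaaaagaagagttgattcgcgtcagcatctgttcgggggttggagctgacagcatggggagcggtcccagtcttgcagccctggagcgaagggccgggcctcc
The PU.1 core occurred at 2 places in the Dock2 window (bases -164 to -159 on the minus strand and -9 to -4, counted back from the start) and once in the Vav1 window (-11 to -6). The Cyba window held 2 GC boxes (-24 to -19 and -6 to -1), the Coro1a window 1 (-153 to -148) and the Vav1 window 1 (-66 to -61, minus strand). Over all the windows examined the motifs did not sort the genes by their fall. Ncf1, with the largest fold change, had a GC box (-42 to -37, minus strand) and no PU.1 core, and Cybb had neither. Arhgdib had 3 windows, the first with neither motif, the second with a GC box and the third with a PU.1 core, and the second window of Coro1a had neither. Such letters are common, since 23.3% of 32851 windows of this length held a PU.1 core and 32.7% a GC box, and a match describes the sequence only.

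Of the membrane core, Cybb (ENSMUSG00000015340, chrX:9435252-9487771, minus strand of GRCm38), the catalytic subunit, was barely detected in whole cortex. Control libraries held 4 to 35 Cybb counts (median 14) and PLX5622 libraries 0 to 12 (median 3), with 3 libraries at 0. The groups overlapped, and 18 of 24 PLX5622 libraries lay below every control library in CPM. Cybb fell by 2.28 on the log2 scale (SE 0.25, edgeR adjusted p = 3.472e-10). At 0.278 ± 0.213 TPM in control mice (SD, n = 23) it had the lowest level of the 9 genes.

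Cyba (ENSMUSG00000006519, chr8:122424776-122432930, minus strand) encodes the partner that stabilises NOX2 and other NOX enzymes. Its level was 18.9 to 29.9 TPM in control libraries (median 21.5) and 5.99 to 13.4 TPM in PLX5622 libraries (median 10.97). Every PLX5622 library lay below every control library, as was so for 0.583% of genes on TPM and 0.870% on CPM. Counts went from 122 to 214 (median 148) in control libraries to 55 to 114 (median 84) with PLX5622. The log2 fold change was -1.07 (SE 0.06, edgeR adjusted p = 4.255e-21) on counts and -1.004 on TPM (limma adjusted p = 1.597e-19).

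The cytosolic organiser Ncf1 (ENSMUSG00000015950, chr5:134220053-134229625, minus strand) had the largest fold change of the 9. Control libraries held 105 to 234 Ncf1 counts (median 142) and PLX5622 libraries 2 to 40 (median 12). The groups did not overlap on CPM or on TPM, where controls ran from 3.45 to 6.54 and PLX5622 libraries from 0.109 to 1.404. Ncf1 fell by 3.39 on the log2 scale of counts (SE 0.15, edgeR adjusted p = 5.748e-25) and by 1.85 on the log2(TPM + 1) scale, which understates the change of low genes (limma adjusted p = 7.692e-25). An exon of Gtf2ird2 on the opposite strand overlaps an Ncf1 exon, and the strand setting of the counting is not given in the sources used here. Ncf4 (ENSMUSG00000071715, chr15:78244801-78262580, plus strand), which encodes a phosphoinositide-binding subunit, went from 11 to 43 counts (median 20) to 0 to 12 (median 3.5, with 5 libraries at 0). In CPM 23 of 24 PLX5622 libraries lay below every control library. Its log2 fold change on counts was -2.67 (SE 0.26, edgeR adjusted p = 3.739e-12).

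Rac2 (ENSMUSG00000033220, chr15:78559167-78572783, minus strand), the RAC GTPase of blood cells, held 43 to 82 counts in control libraries (median 65) and 3 to 29 in PLX5622 libraries (median 11). The groups did not overlap. Rac2 fell by 2.48 on the log2 scale of counts (SE 0.15, edgeR adjusted p = 2.723e-20). The TPM and count tables ordered control mice differently for this gene: over the 23 control libraries the correlation of TPM with CPM was -0.12, beside 0.88 to 0.93 for Cyba, Ncf1, Vav1, Dock2, Arhgdib and Coro1a. It was also low for Ncf4 (0.32) and Cybb (0.42).

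Vav1 and Dock2 exchange GDP for GTP on RAC proteins, and with Ncf1 they kept the smallest shares of the 9. Vav1 (ENSMUSG00000034116, chr17:57279100-57328031, plus strand) went from 47 to 131 counts (median 98) in control libraries to 0 to 34 (median 10) with PLX5622, with 1 library at 0. Dock2 (ENSMUSG00000020143, chr11:34226815-34783892, minus strand) went from 79 to 164 counts (median 106) to 5 to 31 (median 13). Neither gene's groups overlapped. Vav1 fell by 3.25 on the log2 scale of counts (SE 0.18, edgeR adjusted p = 5.476e-21) and Dock2 by 2.97 (SE 0.12, edgeR adjusted p = 1.344e-26). Exons of Dock2 overlap the antisense gene 4930403D09Rik, whose reads could not be separated without strand.

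Arhgdib (ENSMUSG00000030220, chr6:136923655-136941899, minus strand), the inhibitor that holds RAC proteins in the cytosol, kept 61.9% of its control level. Its level was 11.1 to 20.9 TPM in control libraries (median 16.0) and 7.23 to 16.3 TPM in PLX5622 libraries (median 9.99). The groups overlapped, and 21 of 24 PLX5622 libraries lay below every control library. The log2 fold change was -0.71 (SE 0.076, edgeR adjusted p = 1.193e-10) on counts and -0.61 on TPM (limma adjusted p = 6.601e-10). An Arhgdib exon overlaps one of Pde6h on the opposite strand.

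Coro1a (ENSMUSG00000030707, chr7:126699773-126707787, minus strand), the coronin typical of blood cells, was the most abundant of the 9 and showed no detectable change. Control libraries ran from 55.3 to 103 TPM (median 79.2) and PLX5622 libraries from 58.9 to 102 TPM (median 79.6). The 2 ranges lay on top of each other. Its difference was 0.010 on the log2(TPM + 1) scale (SE 0.067, limma adjusted p = 0.9601) and -0.022 on counts (SE 0.050, edgeR adjusted p = 0.8651), so its sign depended on the table. With 15.2% of the microglial level left, Coro1a remained at its control level, and which cells of the cortex held its RNA was not tested. Bola2 on the opposite strand overlaps the end of Coro1a.

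By level per transcript length, control cortex ranked Coro1a first (78.5 TPM), then Cyba (22.2), Arhgdib (16.0), Ncf1 (4.51), Vav1 (2.28), Rac2 (1.93), Ncf4 (1.51), Dock2 (1.11) and Cybb (0.278). The ranges of control libraries did not overlap between Coro1a and Cyba, Arhgdib and Ncf1, or Ncf1 and Vav1, and overlapped between all other neighbours. The spread between mice was narrow for Dock2 and Cyba (coefficients of variation of CPM of 12.2% and 11.95% in controls) and wide for Ncf4 and Cybb (41.1% and 46.7%), the genes with the fewest counts.

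**Figure D2:**
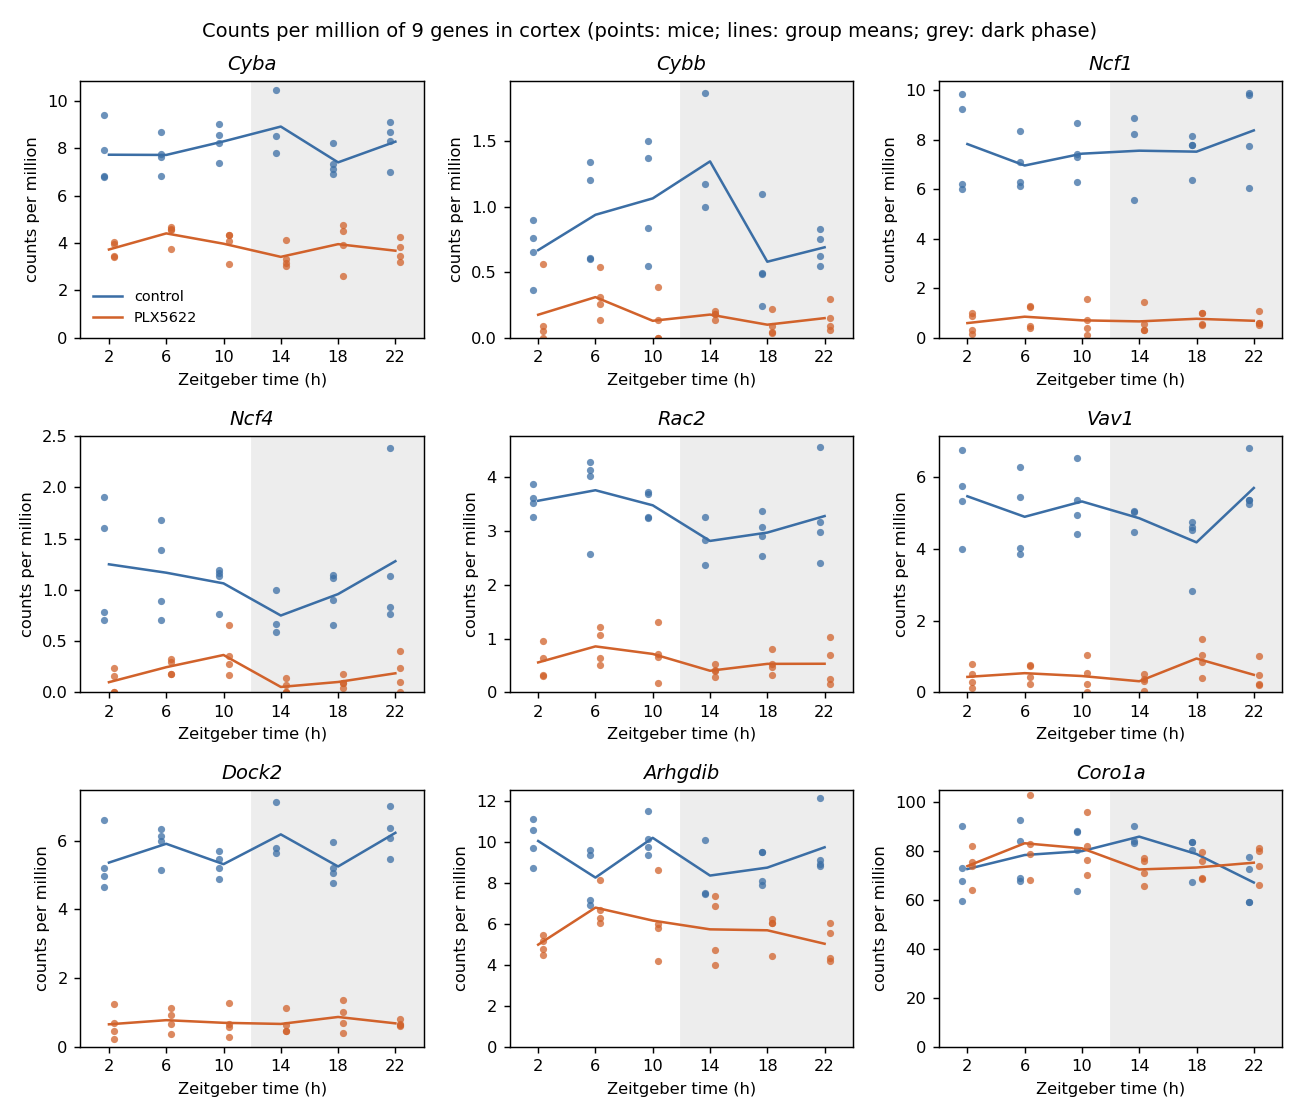
CPM (counts scaled to the library total) of the 9 genes against Zeitgeber time (hours). Points are mice, lines join the group means of control (blue) and PLX5622 (orange) mice, and the dark phase is grey. The lines stay apart at every time for the genes that fell furthest, such as Dock2 with control means of 5.25 to 6.23 and PLX5622 means of 0.654 to 0.868, and cross for Coro1a.

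Each Zeitgeber time was then taken alone. Cyba, Ncf1 and Vav1 fell at all 6 Zeitgeber times in both tests, and Dock2 and Rac2 at all 6 in the count test. Of all genes, limma on TPM called lower 1.18% at ZT2, 0.967% at ZT6, 1.02% at ZT10, 0.885% at ZT14, 0.775% at ZT18 and 1.25% at ZT22, and edgeR on counts 1.88%, 1.42%, 1.64%, 1.47%, 1.31% and 1.57%. Of the gene-and-time contrasts of the 9 genes, 41 of 54 were called lower in edgeR and 25 of 36 in limma. Rac2 did not pass in limma at ZT10 (adjusted p = 0.1088) or ZT18 (adjusted p = 0.1431), where its log2 fold changes were -0.88 and -0.86. Ncf4 passed at every time but ZT10 (log2 fold change -1.52, edgeR adjusted p = 0.2315). Cybb passed only at ZT10 and ZT14, where its log2 fold changes were -2.92 and -2.90 (edgeR adjusted p = 0.00504 and 0.002942).

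Arhgdib passed at 4 of the 6 times in edgeR and at 3 in limma, where ZT18 did not pass (log2 fold change -0.55, limma adjusted p = 0.1181). Its log2 fold change on counts was -1.05 at ZT2 (edgeR adjusted p = 5.426e-05) and -0.95 at ZT22 (adjusted p = 0.0003975), and it did not pass at ZT6 (-0.31, adjusted p = 0.5662) or ZT14 (-0.55, adjusted p = 0.2791). At ZT6 the 4 control mice held 6.90 to 9.59 CPM and the 4 PLX5622 mice 6.03 to 8.17, which overlapped. The test of whether the diet difference itself varied between times did not call Arhgdib. Its p in edgeR was the lowest of the 9 (edgeR unadjusted p = 0.0597, adjusted p = 0.9844). In limma its unadjusted p was 0.162, and that of Vav1 was lower (limma unadjusted p = 0.137). That test called 0 of 14580 genes in limma (485 at an unadjusted p under 0.05) and 0 of 18274 in edgeR (811 unadjusted), and the other members had unadjusted p of 0.137 to 0.912 in limma and 0.0872 to 0.851 in edgeR. Leaving out control ZT2 replicate 2 or control ZT10 replicate 1 gave 1 gene in limma, which was none of the 9.

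None of the 9 genes was called rhythmic. JTK_CYCLE, a rank test for a 24-h cycle, called 11 genes in control mice (0.0754%) and 89 in PLX5622 mice (0.610%). The lowest adjusted p among the 6 genes tested was 0.5795 for Rac2 in control mice and 0.565 for Arhgdib in PLX5622 mice, and none of the 6 had an unadjusted p under 0.05 in JTK_CYCLE or in the limma test of a cosine. Group means of Coro1a in control mice ran from 70.0 ± 13.5 TPM at ZT22 (SD, n = 4) to 92.1 ± 9.81 TPM at ZT14 (SD, n = 3), and in PLX5622 mice from 71.0 ± 10.9 TPM at ZT18 to 87.9 ± 13.2 TPM at ZT10 (n = 4 each). Those of Cyba ran from 20.1 ± 1.15 TPM at ZT18 to 25.0 ± 4.27 TPM at ZT14 in control mice. A difference in rhythm between the diets was called for 0 genes in limma (669 at an unadjusted p under 0.05) and 0 in edgeR (1012 unadjusted), with unadjusted p of 0.220 to 0.820 in limma and 0.117 to 0.932 in edgeR for the 9 genes tested there.

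The fall of each gene was set against that of the 10 microglial markers (among them P2ry12, Tmem119, Cx3cr1, Siglech, Fcrls, Gpr34, P2ry13, Olfml3 and Sall1) by dividing its TPM by their summed TPM in each library. In control libraries Coro1a stood at 0.305 ± 0.046 of the microglial sum (SD, n = 23) and in PLX5622 libraries at 2.19 ± 0.743 (n = 24), a 7.18-fold higher ratio. The ratio was 4.47-fold higher for Arhgdib and 3.40-fold higher for Cyba. For these 3 genes every PLX5622 library lay above every control library (permutation test within Zeitgeber time, p = 1e-05, the smallest that 100000 resamples can give, adjusted over 9 genes p = 3e-05). They kept a larger share of their control level than the microglial sum did. That sum fell from between 211 and 317 TPM to between 18.2 and 62.0 TPM. A gene with no change therefore also gives a higher ratio, and the share of all genes with such a ratio was not computed.

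The other 6 genes could not be separated from the microglial sum on TPM. The fold of the mean ratio was 1.73 for Cybb (permutation test, adjusted p = 0.203), 1.22 for Ncf4 (0.547), 0.895 for Rac2 (0.639), and 0.830, 0.771 and 0.743 for Dock2, Ncf1 and Vav1 (adjusted p = 0.0647 each). On CPM Ncf1, Vav1 and Dock2 were called lower relative to the microglial sum (log2 fold of the ratio -0.98, -0.85 and -0.46), which made 6 genes called. With the most abundant marker left out of the sum on TPM, the signs of Ncf1, Dock2 and Rac2 turned (0.038, 0.13 and 0.26). The direction for these genes thus depended on 1 marker. Without PLX5622 ZT2 replicate 4 or PLX5622 ZT10 replicate 3, 5 genes were called.

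Within PLX5622 mice, 4 of the 9 genes correlated with the microglial markers by Pearson's r, and by Spearman's rho Rac2 passed in place of Dock2. Other genes were not tested against the marker mean, so no share over all genes stands beside this count. After removal of each group's mean, the log2(TPM + 1) of Vav1 moved with the mean of the microglial markers over 24 libraries (Pearson r = 0.69, permutation adjusted p = 0.0124, Spearman rho = 0.70 with adjusted p = 0.0122, r = 0.55 without the 2 libraries farthest from the median). The same held for Arhgdib (r = 0.69, permutation adjusted p = 0.0227, rho = 0.64 with adjusted p = 0.0254, r = 0.63 without the 2 libraries), Ncf1 (r = 0.63, permutation adjusted p = 0.0275, rho = 0.64 with adjusted p = 0.0358, r = 0.55 without them) and, by r alone, Dock2 (r = 0.62, permutation adjusted p = 0.0275, rho = 0.56 with adjusted p = 0.0538, r = 0.50 without them). For Rac2 rho was 0.57 (permutation adjusted p = 0.0459). Pearson's r was 0.54 for Rac2 and 0.41 for Cyba (permutation adjusted p = 0.0582 and 0.0809), 0.37 for Coro1a, and near 0 for Cybb (0.084) and Ncf4 (-0.012). In the 23 control mice none of the 9 passed by r, where 1, Dock2, had an unadjusted permutation p under 0.05 (r = 0.56, adjusted p = 0.0582), and Dock2 passed by rho (0.59, permutation adjusted p = 0.0455). The p-values were adjusted over 18 relations for each coefficient, and both quantities come from the same library.

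The number of calls depended on single mice. By r, without PLX5622 ZT10 replicate 4 no relation was called; without PLX5622 ZT2 replicate 3, PLX5622 ZT10 replicate 2, PLX5622 ZT10 replicate 3 or PLX5622 ZT18 replicate 2, 2 were called; and without control ZT22 replicate 2 or PLX5622 ZT2 replicate 4, 7 were called.

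**Figure D3:**
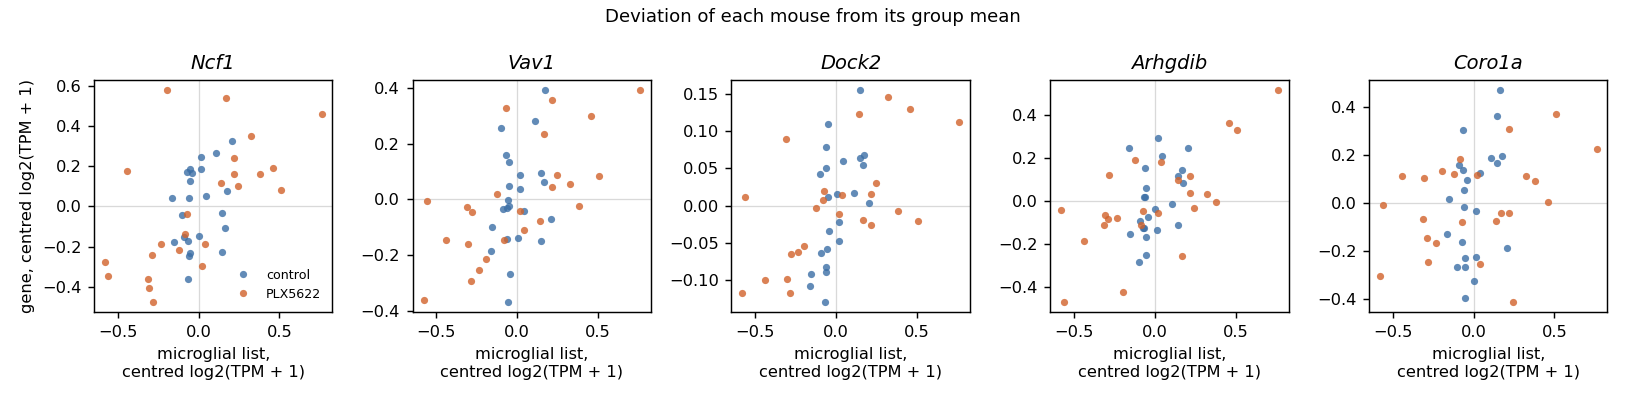
Deviation of each mouse from its group mean in log2(TPM + 1), for 5 of the genes (vertical axes) against the mean of the 10 microglial markers (horizontal axes). Points are mice, control in blue and PLX5622 in orange. The orange points slope upward for Vav1 and Arhgdib (r = 0.69 for both) and scatter more widely for Coro1a (r = 0.37).

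Partner genes of the oxidase were examined next. Hvcn1, the proton channel that balances the charge moved by the oxidase, went from 2.48 to 0.678 mean TPM (log2 fold change on counts -1.81, SE 0.17, edgeR adjusted p = 2.492e-12). Cybc1, the chaperone of the membrane core, was not called (-0.051, edgeR adjusted p = 0.6417). The widely expressed Rac1 (-0.015), Rap1a (0.040) and Prdx6 (-0.008) were not called either. Of 9 genes of other NOX and DUOX enzymes only Noxo1 and Duox1 had counts enough to be tested, and neither was called (-0.009 and 0.17).

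Of 18 paralogues of the RAC genes that many tissues use, 2 were called lower on counts, Vav2 (-0.30, SE 0.049, edgeR adjusted p = 5.845e-06) and Arhgdia (-0.11, SE 0.031, edgeR adjusted p = 0.02383), and 1, Vav2, on TPM. Their median was 0.015, close to that of all genes, and the highest was Tiam2 (0.11, not called). Values differed within families, without a test of the difference: Rac2 fell by 2.48 while Rac1 and Rac3 had values of -0.015 and 0.038, Vav1 fell by 3.25 while Vav3 had 0.037, and Dock2 fell by 2.97 while Dock1 and Dock3 had -0.038 and 0.012.

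**Figure D4:**
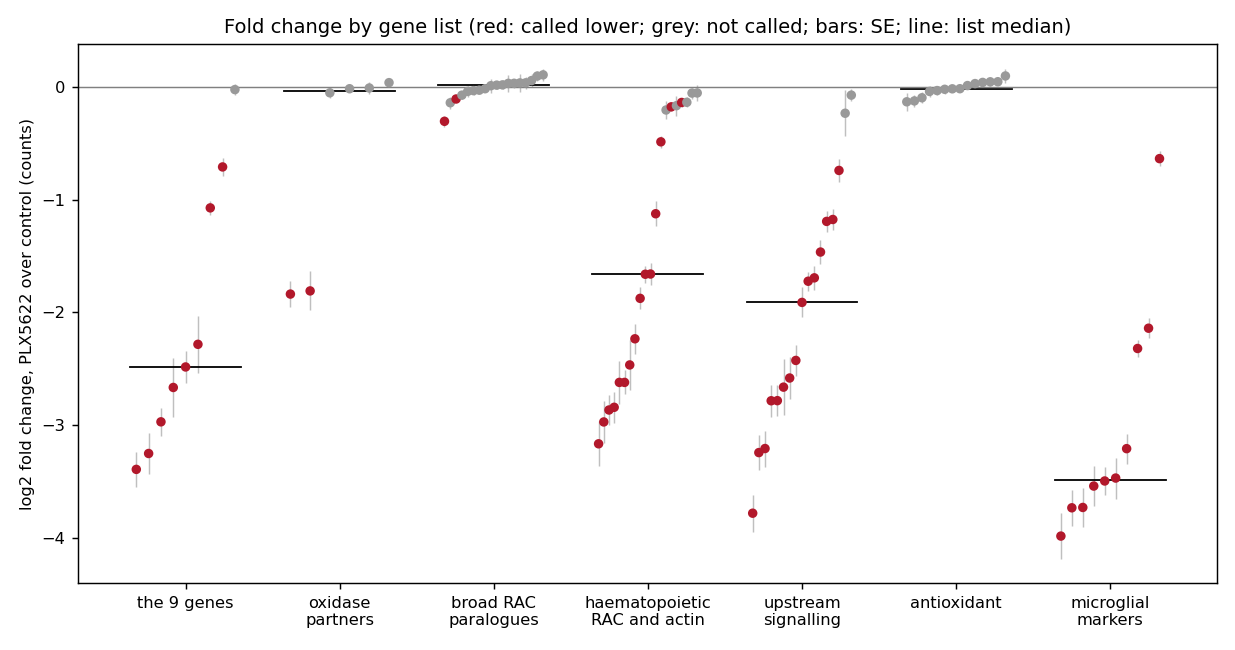
Log2 fold change (PLX5622 over control, edgeR on counts) of the 9 genes and of 6 gene lists. Points are genes with their SE, red where called lower and grey where not called, and black lines are list medians. The 9 genes spread from -3.39 to -0.022, the paralogue and antioxidant lists lie around 0, and the microglial markers have a median of -3.48.

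In the list of RAC and actin regulators of blood cells, 15 of 20 genes fell on counts (median -1.66). Arhgap30, a GTPase-activating protein, and Hcls1, an actin-binding adaptor, fell most (-3.17 and -2.97), and Dock10 was highest (-0.052, not called). Of 18 genes of the receptors and kinases upstream, 17 were tested and 15 fell (median -1.91). Itgam, an integrin chain of myeloid cells, and Fcer1g, the common Fc receptor chain, fell most (-3.78 and -3.24), while Skap2 (-0.071) and Prkcd (-0.23) were not called. None of 14 antioxidant genes was called by edgeR (1 at an unadjusted p under 0.05) or limma (3 unadjusted), with values from -0.13 for Hmox1 and -0.12 for Gpx1 to 0.099 for Nqo1.

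Other cells that could hold these transcripts were gauged by their markers. All 8 markers of border macrophages fell on counts, and their summed level went from 12.3 to 25.3 TPM in control libraries to 0.828 to 4.31 TPM with PLX5622. Many markers of white blood cells had too few counts to be tested, with Ly6g and Elane at 0 counts in most libraries. Tested were 4 of 8 neutrophil, 2 of 6 monocyte, 2 of 8 T and NK cell and 3 of 6 B cell genes. Of these, Ccr2 (-1.68) and Cd79b (-1.39) fell and the rest were not called. Summed levels were 2.34 to 33.4 TPM in control and 2.55 to 37.2 TPM in PLX5622 libraries for neutrophil markers. The neutrophil sums averaged 14.5 TPM in control and 15.55 TPM in PLX5622 mice and came largely from S100a8 and S100a9. S100a8 averaged 5.93 and 6.66 TPM, and S100a9 6.78 and 6.83 TPM. Monocyte markers summed to 1.82 to 4.54 and 1.75 to 4.54 TPM, and T and NK cell markers to 0.747 to 4.27 and 1.10 to 3.92 TPM. B cell markers summed to 0.598 to 3.84 and 0.303 to 3.80 TPM. Vcan alone averaged 2.08 TPM in control and 2.385 TPM in PLX5622 mice, of monocyte sums averaging 2.96 and 3.26 TPM. Lck averaged 1.24 and 1.41 TPM, of T and NK cell sums averaging 2.24 and 2.38 TPM. The monocyte sum and the T and NK cell sum thus each rested largely on a single gene. Red cell RNA was abundant and uneven between mice, with the 5 markers summing to 266.6 to 3034 TPM in control and 193 to 2919 TPM in PLX5622 libraries, and none of the 5 was called by edgeR or limma (0 at an unadjusted p under 0.05 in either). The part of these cells in the levels that Cyba, Arhgdib and Coro1a kept was not tested. None of 8 neuronal and 6 endothelial markers was called by edgeR (0 and 1 at an unadjusted p under 0.05) or limma (1 and 0 unadjusted).

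The genes whose levels varied most like each of the 9, by Pearson r of log2(TPM + 1) over 47 libraries after removal of group means, are given as a description, since all values of a library share its depth and composition. Microglial or myeloid genes stood among the nearest 3 for Dock2 (P2ry12 0.64, Itgam 0.59, Gpr34 0.58), Arhgdib (Tmem119 0.67, P2ry13 0.60, C1qa 0.58), Ncf1 (Ctss 0.62, Siglech 0.62, Zscan29 0.61) and Vav1 (Sh2b3 0.65, Havcr2 0.63, Gpr34 0.59). Coro1a differed in having much closer neighbours (Fhl2 0.91, Actr3b 0.89, Arl6ip5 0.89). None of them was a microglial marker, which was also so for the nearest genes of Cyba, Rac2, Ncf4 and Cybb. The nearest genes were P4ha3, Gab2 and Lin52 for Cyba (0.62 to 0.65), Arhgap36, Zfp462 and A130014A01Rik for Rac2 (0.57 to 0.62), Slc7a10, Rbms2 and Kank2 for Ncf4 (0.66 to 0.69) and Tagln2, Zfp36l2 and Hyal1 for Cybb (0.55 to 0.59).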

How the data were processed

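RNA of 47 cortices was sequenced as paired reads. The authors deposited 2 tables of all libraries: TPM values per gene (54281 genes), which the study's methods trace to STAR and Salmon with a GENCODE annotation of GRCm38, and raw counts per gene (54532 genes), which were deposited under an FPKM name but hold whole numbers; the labels also list featureCounts, and the role of each tool is not given there. Counts measure reads per gene and TPM also corrects for transcript length. Gene positions and symbols came from GENCODE M21, which held 99.68% of TPM and 99.77% of count identifiers.

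The 9 genes and all lists were chosen with earlier results of these data known. Diet was tested by limma 3.58.1 on log2(TPM + 1) with cosine and sine of Zeitgeber time, the design of the study, on genes averaging 1 TPM or more, and by edgeR 4.0.16 (TMM, filterByExpr over 12 groups, quasi-likelihood test) on counts, with Benjamini-Hochberg adjustment over all genes and a threshold of 0.05. Contrasts at each time used 12 group means. JTK_CYCLE was rewritten with 6 phases, since MetaCycle was not used here. Tests were checked on simulated data. Ratios to, and correlations with, the microglial markers used 100000 permutations. Named genes were the 9, the oxidase partners, the 2 largest falls and the highest value of each other list. Every paralogue called and the 3 nearest genes of each of the 9 were also named. Rac3, Vav3, Dock1, Dock3, Skap2, Prkcd, Ccr2, Cd79b, Ly6g, Elane, S100a8, S100a9, Vcan, Lck and Gfap were added after their values were seen. Some genes that this rule names are not reported here. Replicate numbers were not taken to pair mice. Alternatives were another pseudocount, filter, scaling or tool (DESeq2 1.42.0 among them), Zeitgeber time as a factor, a replicate block and leaving out each library. Total counts of 16597987 to 27626161 set the precision.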

Additional observations from a re-analysis of the deposited data

Results flagged for a closer look

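In 99 groups of 4 mice (9 genes, 11 groups), 8 had 1 mouse whose TPM lay far from the other 3 by Dixon's criterion. About 4.95 would be expected if TPM values were normal and the groups independent, which was not checked. In all 8 the flagged value was the highest of its group. Rac2 held 3 of them. Control ZT6 replicate 3 had 7.837 TPM beside 1.561 to 1.739 in the other 3 mice, with the fewest counts of its group (43 of 43 to 77). Control ZT2 replicate 2 had 4.908 TPM beside 1.283 to 1.528, with 69 counts in a group of 65 to 69. PLX5622 ZT14 replicate 4 had 0.6284 TPM beside 0.1657 to 0.199, with the fewest counts (6 of 6 to 11). Ncf4 in control ZT10 replicate 2 had 4.268 TPM beside 0.8365 to 1.313, again with the fewest counts of its group (15 of 15 to 27). For these 4 the high TPM was not matched in counts, and the reason was not tested.

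Cybb stood apart in PLX5622 ZT2 replicate 2 (0.174 TPM beside 0 to 0.02488) and in PLX5622 ZT18 replicate 3 (0.3529 TPM beside 0.01249 to 0.02762), with 12 and 5 counts, the most of their groups. Ncf1 in PLX5622 ZT22 replicate 1 had 1.157 TPM beside 0.2738 to 0.3463 and 23 counts, also the most of its group. Coro1a in PLX5622 ZT18 replicate 4 had 87.22 TPM beside 63.51 to 66.71, with 1702 counts in a group of 1481 to 1726.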

How the results depend on the processing

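The 8 calls on counts held with RLE scaling, no filter, DESeq2, a replicate block and without any 1 of the 47 libraries. On TPM, a filter of 5 TPM left 298 genes and 2 of the 9 called, since fewer were tested, and no filter gave 8 of the 9. Replicate numbers were not taken to pair mice (23 same-numbered pairs, r from -0.0928 to 0.198, and 11 of 23 control mice correlated best with their own number); a replicate block gave 578 genes on TPM and 1472 on counts and changed no call of the 9. Coro1a turned to -0.014 on TPM with median-of-ratios scaling, and ran from -0.0095 to 0.030 without single libraries; the cause was not tested here or below. Calls at single times numbered 25 in limma and 41 in edgeR, which tested 3 more genes. Rhythmic genes in control mice numbered 36 by limma, 2 with no filter and 0 to 18 without single libraries, and in PLX5622 mice 135, 46 and 38 to 114; none of the 9 was among them. The diet difference by time gave 0 to 1 genes without single libraries. Ratios to the microglial sum gave 6 called genes on CPM and 3 to 5 without single libraries. Signs turned for Ncf4 on CPM (-0.071). For Rac2 they turned on CPM (0.0084), without the most abundant marker in the sum (0.256) and without single libraries (-0.27 to 0.068). Leaving out that marker also turned the signs of Ncf1 (0.038) and Dock2 (0.13). Correlations with the microglial markers gave 0 to 7 calls without single libraries, and signs turned for Cyba and Rac2 in control mice when not centred (0.20 and 0.041), for Ncf4 in PLX5622 mice with a pseudocount of 0.1 (0.019) or not centred (0.012), and without single libraries for Rac2 in control (-0.27 to 0.028), Cybb in PLX5622 (-0.017 to 0.17) and Ncf4 in PLX5622 mice (-0.093 to 0.10). Cybb and Ncf4 had at most 12 counts in any PLX5622 library, which limits both.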

Other observations

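Among markers of the border macrophages, Mrc1, the mannose receptor, had the largest fall (log2 fold change on counts -4.48, SE 0.18, edgeR adjusted p = 1.267e-26), below every gene of the oxidase and RAC set, and Cd163, a scavenger receptor, the smallest (-0.98). Of the glial markers, Gfap, an astrocyte filament, rose by 0.53 (edgeR adjusted p = 1.518e-05; limma on TPM adjusted p = 5.493e-06). The other 5 astrocyte markers were not called.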
